A study of Mus musculus with 8 samples.

Results

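The Runx factors Runx1, Runx2 and Runx3, their partner Cbfb, and the Ets factors Ets1, Fli1, Elf1, Elf4 and Gabpa were followed in regulatory T (Treg) cells that differ in expression of a Bach2 reporter. These 9 genes were taken by symbol, through their Ensembl IDs, from the 36811 gene models of the expression table. All 9 passed the low-value filter, which asked for 1 FPKM or more in 4 or more libraries, and so belonged to the 11260 models tested. The cells came from spleens of C57BL/6 mice of genotype Foxp3EGFP-DTR Bach2tdRFP/+, aged 12 to 13 weeks. Both groups thus carried the same alleles, a Foxp3 allele with a green reporter and a diphtheria toxin receptor and 1 Bach2 allele with a red reporter (RFP). CD4 T cells were enriched, Foxp3-GFP positive Treg cells were sorted by flow cytometry as Bach2-RFP LO or Bach2-RFP HI, and RNA was sequenced after SmartSeq2 library preparation. LO and HI each had 4 libraries, labelled F1 and F2 (female) and M1 and M2 (male), and values are FPKM, fragments scaled by transcript length and library size, as deposited. The labels do not say that the libraries came from separate mice, and p-values therefore reflect only how these 8 libraries vary.

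Runx proteins bind DNA through the Runt domain, and Cbfb, which does not touch DNA, strengthens that binding and stabilises them. In Treg cells Runx1 with Cbfb works together with Foxp3, and Runx3 is best known for silencing Cd4 in CD8 T cells and for acting with T-bet in type 1 helper and cytotoxic cells. Ets proteins share a DNA-binding domain that recognises a GGAA core, often beside Runx sites in lymphocyte enhancers. Bach2 is a repressor that restrains effector differentiation of T cells and binds sites resembling those of AP-1.

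Among these factors, Runx3 rose in LO cells, and none was called lower (limma, also at an unadjusted p below 0.05). Of the 9 genes, 1 passed the test, limma on log2(FPKM + 1) with adjusted p below 0.05, against 8.29% of all tested genes, and it was higher in LO, as were 4.65% of all tested genes. In 3 of the 9, Runx3, Fli1 and Elf4, all 4 LO libraries lay above all 4 HI libraries, which was so for 7.90% of tested genes. The groups overlapped in the other 6. The median difference of the 9, LO minus HI on the log2(FPKM + 1) scale, was 0.25, against -0.026 over all tested genes, and their median absolute difference was 0.25, against 0.36. Since these are sorted bulk samples, fewer cells expressing a gene and less RNA per cell cannot be told apart.

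**Figure D1:**
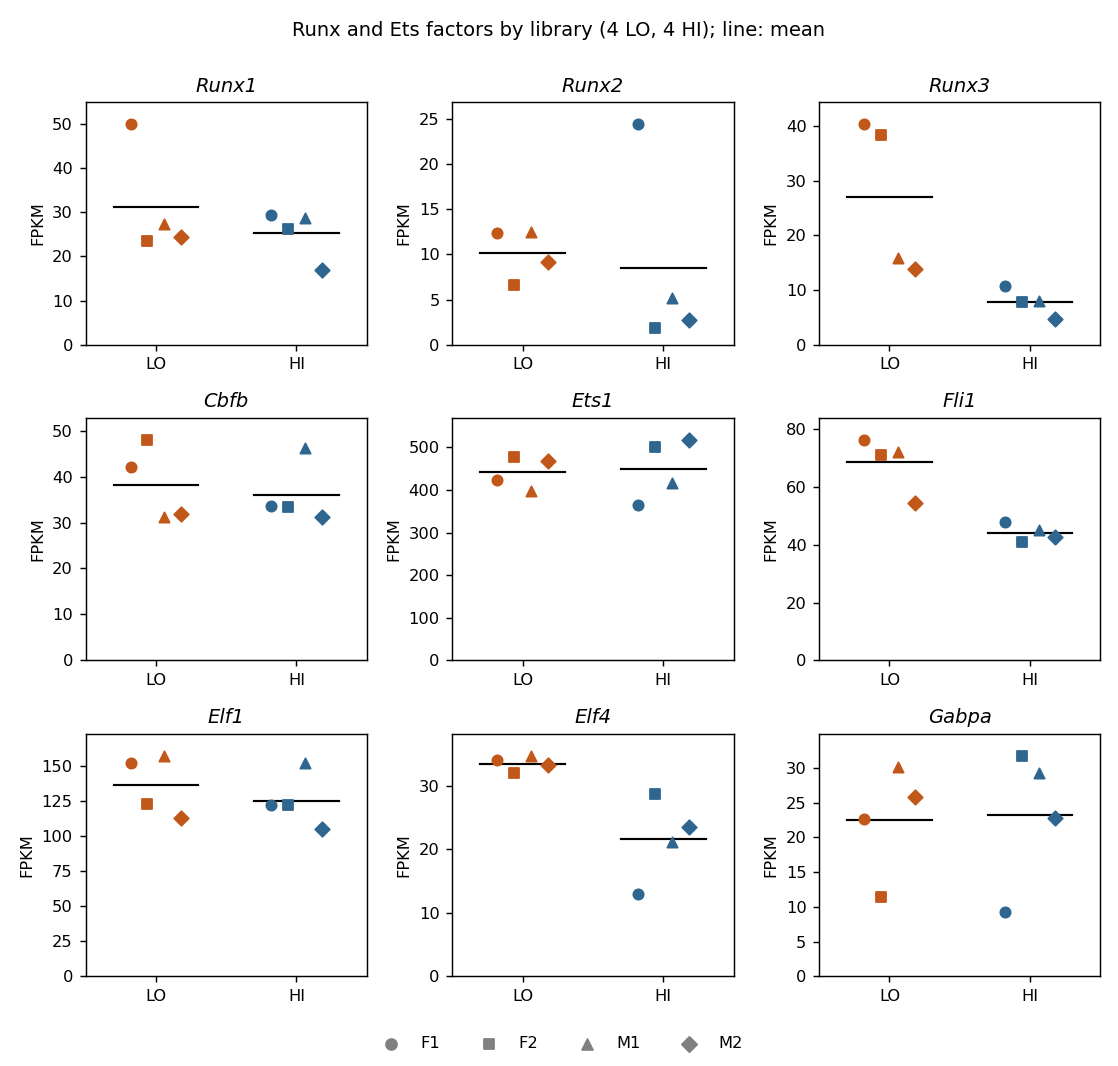
FPKM of each of the 9 Runx and Ets factors in the 4 LO libraries (orange, left) and the 4 HI libraries (blue, right) of each panel, with a horizontal line at the group mean and a marker shape for each library label. LO libraries of Runx3, Fli1 and Elf4 all lie above the HI libraries, while 1 library stands far above its group in Runx1 (LO F1, 49.9 FPKM) and Runx2 (HI F1, 24.4 FPKM).

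The sort was visible in Bach2, which fell in LO, and not in Foxp3. Bach2 averaged 0.691 ± 0.187 FPKM in LO and 15.6 ± 5.56 FPKM in HI (SD, n = 4 each), with a log2 difference of -3.23 (SE 0.34, limma adjusted p = 0.00057). Foxp3, the Treg lineage factor, averaged 14.7 ± 3.97 FPKM in LO and 14.2 ± 0.783 FPKM in HI (limma adjusted p = 0.985). Relative sequencing depth, read from steps between low values with HI F1 set at 1, ran from 0.818 to 5.28 in LO and from 0.637 to 1.27 in HI, LO M2 being the deepest and HI M1 the shallowest library. Markers of T and Treg cells summed to 4988 to 6976 FPKM in LO and 4486 to 5468 FPKM in HI. Of these, 2 of 6, Ctla4 and Ikzf2, were called higher in LO. The count was 1 of 6 without LO F1, LO F2 or HI F2, without HI M1 and LO M2 together, or with a replicate block. Markers of other cells were present at lower sums, and of all tested genes 3.64% were called lower in LO. B cell markers reached 77 to 101 FPKM in LO and 149 to 262 FPKM in HI, with 4 of 7 tested lower in LO. Plasmacytoid dendritic cell markers reached 268 to 364 FPKM in LO and 359 to 590 FPKM in HI, with 2 of 5 lower in LO. Myeloid markers reached 62.3 to 155 FPKM in LO and 93.5 to 236 FPKM in HI, with 2 of 6 lower in LO. That count was 1 of 6 without HI F1, HI F2 or HI M2, or without HI M1 and LO M2 together. It was also 1 of 6 with a pseudocount of 0.1, a filter of 5 FPKM or a replicate block. At an unadjusted limma p below 0.05, 4 of the myeloid markers were lower and 1, Itgam, was higher in LO. Itgam had 1.87 to 4.7 FPKM in LO and 0 to 2.4 FPKM in HI (log2 difference 1.25, limma adjusted p = 0.181). Cebpa, which did not pass the low-value filter, had 0.93 to 2.94 FPKM in LO and 0 to 0.771 FPKM in HI. Plasma cell markers reached 52.2 to 169 FPKM in LO and 14.9 to 28.2 FPKM in HI, with Jchain the 1 of 3 called higher. Erythroid and megakaryocyte markers ran from 15 to 179 FPKM in LO and from 48.9 to 137 FPKM in HI, with Gata1 the 1 of 3 lower in LO and Ppbp at 0 throughout. Several of the Runx and Ets factors are also used by these cells, and the part of such cells in the values below was not tested.

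Mammalian Runx genes have a distal and a proximal promoter, and Runx proteins can bind their own promoters. RefSeq promoter windows of the GRCm38.p6 build, from 250 bases before to 50 bases after a start site, were searched on both strands for the Runx core TGTGGT, the Ets core CCGGAA and the AP-1 type sequence TGANTCA. No hit overlapped a hit of another motif in the windows printed here. These motifs were in 16.8%, 14.9% and 7.81% of all 32851 windows, in that order. Of the 9 genes, 7 had a window, 11 windows in all. The 3 windows that held the Runx core belonged to Runx1, Runx2 and Runx3, the gene that rose among them, and are shown because they share it in the same arrangement. Capitals mark ACCACA, the Runx core read from the other strand, and each line is the gene's own strand, 5′ to 3′: chr16:92826025-92826324 (minus strand) for Runx1, chr17:44814578-44814877 (minus strand) for Runx2 and chr4:135120395-135120694 (plus strand) for Runx3.
Runx1: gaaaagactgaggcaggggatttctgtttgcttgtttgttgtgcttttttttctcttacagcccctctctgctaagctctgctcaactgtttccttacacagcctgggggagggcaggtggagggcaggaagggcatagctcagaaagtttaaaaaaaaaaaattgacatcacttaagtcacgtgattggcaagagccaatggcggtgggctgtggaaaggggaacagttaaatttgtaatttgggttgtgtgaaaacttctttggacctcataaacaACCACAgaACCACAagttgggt
Runx2: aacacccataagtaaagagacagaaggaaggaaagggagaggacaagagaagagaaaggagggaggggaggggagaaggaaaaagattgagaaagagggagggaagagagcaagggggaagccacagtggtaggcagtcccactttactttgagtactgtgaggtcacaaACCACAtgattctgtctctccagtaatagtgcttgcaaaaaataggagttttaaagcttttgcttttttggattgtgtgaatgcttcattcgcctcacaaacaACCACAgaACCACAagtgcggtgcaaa
Runx3: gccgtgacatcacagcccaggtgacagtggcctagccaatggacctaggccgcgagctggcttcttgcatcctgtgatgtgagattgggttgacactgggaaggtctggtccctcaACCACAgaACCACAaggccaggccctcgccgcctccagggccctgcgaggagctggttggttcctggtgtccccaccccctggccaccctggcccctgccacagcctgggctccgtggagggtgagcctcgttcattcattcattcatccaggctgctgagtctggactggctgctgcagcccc
All 3 hold the 18-base stretch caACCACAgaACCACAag, in which the cores start 8 bases apart. Counting the first transcribed base as 1, the cores of the pair start at 29 and 37 in Runx1, at 24 and 32 in Runx2 and at -134 and -126 in Runx3, and Runx2 holds another core at -80. The pair with this spacer was found in 4 of the 32851 windows (0.0122%), those of Runx1, Runx2, Runx3 and Gm16225, whose window lies opposite that of Runx3. A pair at this distance with any spacer was found in 7 windows (0.0213%). A second Runx1 window held no Runx core and 1 Ets core, at -106, and a second Runx3 window held none of the motifs searched. The table gives 1 value per gene, so it does not tell which promoter a transcript used.

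Runx3 (ENSMUSG00000070691, chromosome 4) was the factor that rose. Its level was 40.3, 38.3, 15.9 and 13.9 FPKM in LO F1, F2, M1 and M2, and 10.7, 7.89, 7.94 and 4.75 FPKM in HI F1, F2, M1 and M2. The lowest LO library was above the highest HI library, and within LO both libraries labelled female were above both labelled male. Means were 27.1 ± 14.1 FPKM in LO and 7.82 ± 2.43 FPKM in HI (SD, n = 4 each), a ratio of 3.47. The log2 difference was 1.56 (SE 0.401, 95% interval 0.67 to 2.46, limma adjusted p = 0.041), and a two-sided exact permutation test over the 8 libraries gave p = 0.0286, the smallest it can give. By the limma p, Runx3 ranked 844th of the tested genes, close to the limit of the 934 called. Its call was lost without any 1 of LO F1 (adjusted p = 0.105), LO F2 (0.116), HI F1 (0.0543), HI F2 (0.0884), HI M1 (0.0774) or HI M2 (0.0968), and kept without LO M1 (0.0432) or LO M2 (0.0301).

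Runx1 and Runx2 were not called, and in each 1 library set most of the spread. Runx1 (ENSMUSG00000022952, chromosome 16), the Runx factor of blood stem cells and of the Foxp3 complex, had 49.9, 23.5, 27.3 and 24.4 FPKM in LO F1, F2, M1 and M2, and 29.4, 26.3, 28.7 and 17 FPKM in HI F1, F2, M1 and M2. Apart from LO F1, its libraries formed 1 range. The log2 difference was 0.25 (SE 0.289, 95% interval -0.39 to 0.90, limma adjusted p = 0.686). Runx2 (ENSMUSG00000039153, chromosome 17), known as the master regulator of bone-forming cells and present at low levels in T cells, had 12.4, 6.58, 12.5 and 9.16 FPKM in LO F1, F2, M1 and M2. In HI F1, F2, M1 and M2 it had 24.4, 1.85, 5.12 and 2.69 FPKM, so that the highest of all 8 values was in HI F1 and the 3 lowest were the other HI libraries. Its log2 difference was 0.77 (SE 0.619, 95% interval -0.61 to 2.16, limma adjusted p = 0.542). In GRCm38, Runx2 shares 519 of its 8837 exon bases with Runx2os1 on the opposite strand, which had 0 to 4.94 FPKM in LO and 0 to 3.17 FPKM in HI. Without HI F1 the HI mean of Runx2 was 3.22 ± 1.70 FPKM (SD, n = 3), the log2 difference 1.44 and the adjusted p 0.0631.

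Cbfb (ENSMUSG00000031885, chromosome 8), the partner shared by all Runx proteins, did not differ detectably between the groups. It had 42, 47.9, 31.3 and 31.8 FPKM in LO F1, F2, M1 and M2, and 33.6, 33.3, 46.2 and 31.1 FPKM in HI F1, F2, M1 and M2. The groups overlapped almost wholly, and the log2 difference was 0.08 (SE 0.215, 95% interval -0.40 to 0.56, limma adjusted p = 0.887).

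With Runx3 higher, the make-up of the Runx transcripts differed between the groups. Runx3 made up 39.3%, 56%, 28.5% and 29.3% of the summed Runx FPKM in LO F1, F2, M1 and M2, and 16.6%, 21.9%, 19% and 19.4% in HI F1, F2, M1 and M2. No LO library fell into the HI range. Runx1 made up 45.9 ± 7.75% in LO and 64.2 ± 12.5% in HI, and Runx2 15.9 ± 6.01% in LO and 16.6 ± 14.5% in HI (SD, n = 4 each). The 3 genes summed to 47.4 to 103 FPKM in LO and 24.5 to 64.6 FPKM in HI, or 1.43 to 2.44 times the Cbfb level in LO and 0.787 to 1.92 times in HI. Runx3 exceeded Runx1 in LO F2 alone, where the ratio of Runx3 to Runx1 was 1.63, while the HI libraries lay between 0.277 and 0.363. These shares follow from the Runx3 values above and were not tested.

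**Figure D2:**
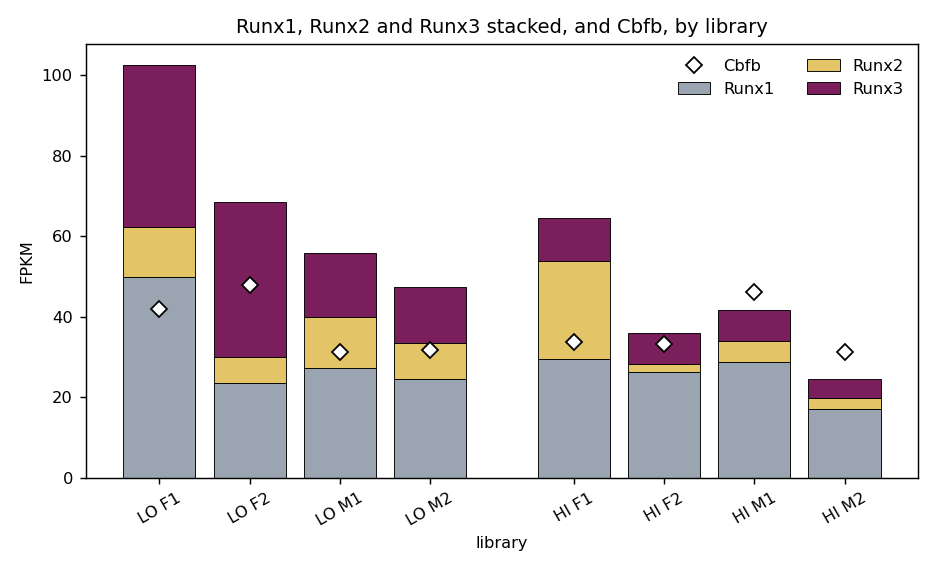
Stacked FPKM of Runx1 (grey), Runx2 (yellow) and Runx3 (purple) in each of the 8 libraries, LO left and HI right, with Cbfb of the same library as a white diamond on the same axis. The Runx3 segment is 28.5% to 56% of the bar in LO and 16.6% to 21.9% in HI, and the Runx2 segment is tallest in HI F1.

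Ets1 and Elf1 were the most abundant of the 9 factors and did not differ detectably between the groups. Ets1 (ENSMUSG00000032035, chromosome 9), needed for T cell survival and known to bind the Foxp3 enhancer, had 423, 478, 398 and 469 FPKM in LO F1, F2, M1 and M2, and 364, 502, 416 and 517 FPKM in HI F1, F2, M1 and M2. HI held both its lowest and its highest library. Its log2 difference was -0.01 (SE 0.148, 95% interval -0.34 to 0.32, limma adjusted p = 0.972). Ets1 stood at the 97.2 percentile of mean levels of tested genes in LO and at 97.1 in HI. Elf1 (ENSMUSG00000036461, chromosome 14), an activator of Il2ra and other T cell genes, had 152, 123, 157 and 113 FPKM in LO F1, F2, M1 and M2, and 122, 122, 152 and 105 FPKM in HI F1, F2, M1 and M2. Libraries labelled M1 were highest and those labelled M2 lowest in both groups, and the log2 difference was 0.12 (SE 0.171, 95% interval -0.26 to 0.50, limma adjusted p = 0.761). In GRCm38, 327 of the 6737 exon bases of Elf1 are shared with Wbp4 on the opposite strand, which had at most 11.7 FPKM in LO and 19 FPKM in HI.

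Fli1 and Elf4 were higher in every LO library than in any HI library, but missed the adjusted threshold. Fli1 (ENSMUSG00000016087, chromosome 9), which limits effector differentiation of CD8 T cells, had 76.2, 71.2, 72.2 and 54.4 FPKM in LO F1, F2, M1 and M2, and 48, 41, 45.1 and 42.6 FPKM in HI F1, F2, M1 and M2. No HI library reached the LO range, and LO M2 was the LO library nearest to HI. Means were 68.5 ± 9.66 FPKM in LO and 44.2 ± 3.08 FPKM in HI (SD, n = 4 each), a ratio of 1.55. The log2 difference was 0.61 (SE 0.167, 95% interval 0.24 to 0.99), with a limma p of 0.00446, or 0.0526 after adjustment, and an exact permutation p of 0.0286. Without LO M2, the deepest library, the adjusted p was 0.0305, and it was also below 0.05 with upper quartile scaling (0.0386), median of ratios scaling (0.0406), array weights (0.042), quantile normalization (0.0469) and a filter of FPKM at least 5 (0.0484). In the other 13 of 19 alternatives Fli1 was not called, with adjusted p up to 0.136. Among these were a sex covariate (0.0744), a replicate block (0.0861) and eBayes without a trend (0.0948).

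Elf4 (ENSMUSG00000031103, chromosome X), which keeps naive CD8 T cells quiescent, was nearly constant within LO. It had 34, 32, 34.7 and 33.3 FPKM in LO F1, F2, M1 and M2, and 12.9, 28.7, 21.2 and 23.5 FPKM in HI F1, F2, M1 and M2. LO libraries lay within a narrow band, and HI libraries were spread below it. Means were 33.5 ± 1.14 FPKM in LO and 21.6 ± 6.6 FPKM in HI (SD, n = 4 each), a ratio of 1.55, with a log2 difference of 0.66 (SE 0.248, 95% interval 0.11 to 1.22). Its limma p was 0.0237, or 0.156 after adjustment, and the exact permutation p was 0.0286. Unadjusted p below 0.05 was found for 3 of the 9 factors, Runx3, Fli1 and Elf4, and for 20.9% of all tested genes. Elf4's best known target in T cells, Klf4, did not pass the low-value filter, with 0 to 3.09 FPKM in LO and 0 to 4.54 FPKM in HI.

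Gabpa (ENSMUSG00000008976, chromosome 16), the DNA-binding subunit of the GABP complex, varied widely within both groups. It had 22.6, 11.4, 30.1 and 25.8 FPKM in LO F1, F2, M1 and M2, and 9.31, 31.7, 29.2 and 22.8 FPKM in HI F1, F2, M1 and M2. Low libraries were LO F2 and HI F1, 1 in each group, and the log2 difference was 0.00 (SE 0.415, 95% interval -0.92 to 0.93, limma adjusted p = 0.997). Its partner Gabpb1, which carries the activation domain, had 36.8 to 75.7 FPKM in LO and 38.4 to 75 FPKM in HI. Gabpb1 and Gabpb2 together were 1.72 to 8.43 times Gabpa in LO and 1.66 to 8.33 times in HI. In GRCm38, Gabpa shares 397 of its 5687 exon bases with Atp5j on the opposite strand. Atp5j, a gene of the mitochondrial ATP synthase, had 607 to 1084 FPKM in LO and 798 to 1394 FPKM in HI. The sources used here do not say if strand was used in counting, so reads of the shared bases cannot be told apart. That limit also holds for the ratios to Gabpa and for its place in the order of levels below.

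**Figure D3:**
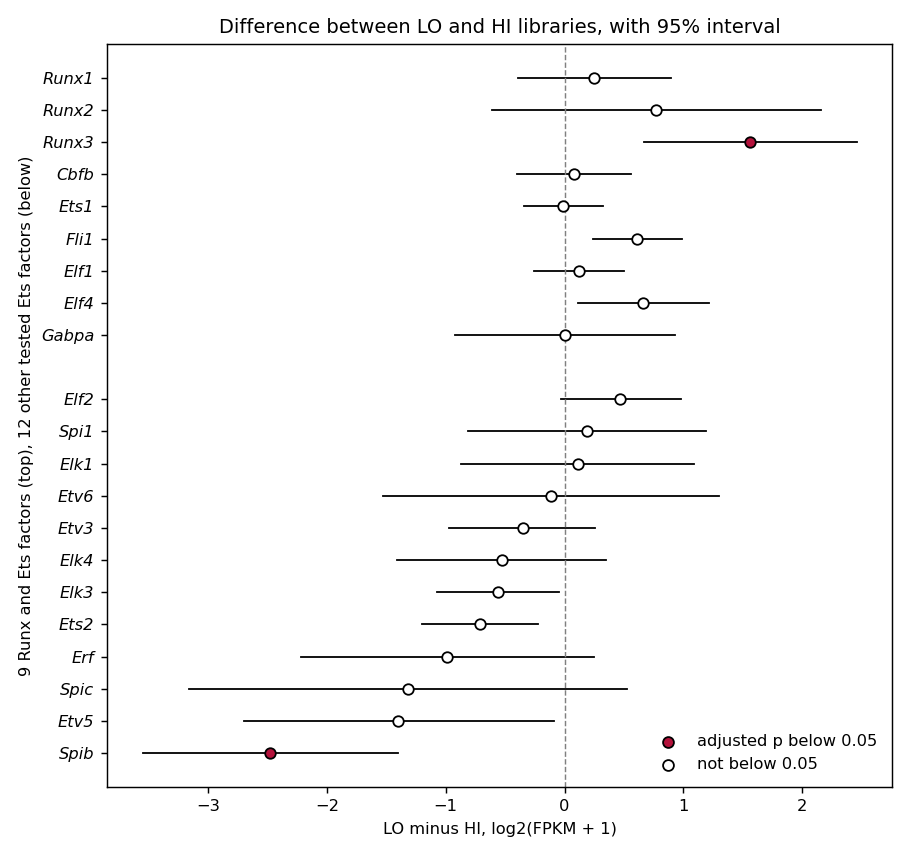
LO minus HI difference on the log2(FPKM + 1) scale with its 95% interval from limma, for the 9 factors (upper block) and the 12 other tested Ets factors (lower block), filled where the adjusted p is below 0.05. Runx3 (1.56) is filled on the right and Spib (-2.48) on the left, while the intervals of Fli1 and Elf4 exclude 0 without passing the adjusted threshold.

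FPKM are scaled by length, so the 9 factors can be ordered by level. In LO the order of means was Ets1, Elf1, Fli1, Cbfb, Elf4, Runx1, Runx3, Gabpa and Runx2. Library ranges did not overlap between Ets1 and Elf1, between Elf1 and Fli1 or between Fli1 and Cbfb, while every later neighbour overlapped with the next. In HI the order was Ets1, Elf1, Fli1, Cbfb, Runx1, Gabpa, Elf4, Runx2 and Runx3, so that Runx3 was last at 7.82 ± 2.43 FPKM (SD, n = 4). There the ranges were apart between Ets1 and Elf1, between Elf1 and Fli1 and between Cbfb and Runx1. Percentiles of the mean level among tested genes were 62.3 in LO and 33.4 in HI for Runx3, 81.1 in LO and 72.9 in HI for Fli1, and 67.2 in LO and 56.4 in HI for Elf4. Ets1 was 5.51 to 8.62 times Fli1 in LO and 7.57 to 12.3 times in HI, ranges that overlap. These 2 genes are neighbours on chromosome 9 of GRCm38, with 0 protein-coding models between them.

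The difference in Runx3 was smaller in male than in female libraries, but not beyond the error of that comparison. For Runx3 the log2 difference, LO minus HI, was 1.15 between the male libraries and 1.98 between the female ones, and the interaction (male minus female) was -0.84 (SE 0.539, adjusted p = 0.999). Fli1 differed by 0.51 in male and 0.72 in female libraries, and Elf4 by 0.58 in male and 0.74 in female libraries. Each of these 3 genes was thus higher in LO in both sexes. Cbfb was at -0.26 in male and 0.41 in female libraries, and Runx2 at 1.30 in male and 0.24 in female libraries. No interaction was called among the 9 factors, against 0.0178% of all tested genes. None of the 9 had an unadjusted limma p below 0.05 for the interaction, against 431 of the 11260 tested genes. Each cell of this design held 2 libraries.

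Among the other Ets family genes, Spib fell in LO. Of 21 such genes 12 were tested, and 1 fell, against 3.64% of all tested genes, while none rose in limma. At an unadjusted p below 0.05, 4 were lower and 0 higher, against 20.9% of all tested genes in either direction. Their median log2 difference was -0.55, against -0.026 over all tested genes. Spib, an Ets factor of B cells and plasmacytoid dendritic cells, had 1.14, 0, 1.4 and 1.15 FPKM in LO F1, F2, M1 and M2, and 18, 7.33, 12.5 and 3.99 FPKM in HI F1, F2, M1 and M2. Every HI library was above every LO library (log2 difference -2.48, SE 0.481, limma adjusted p = 0.011). Of the marker sums given above, that of B cells was higher in every HI library. That of plasmacytoid dendritic cells overlapped between the groups, but Siglech and Cox6a2 within it did not. Siglech had 0 to 1.4 FPKM in LO and 7.14 to 44.6 FPKM in HI. Cox6a2 had 0 to 2.48 FPKM in LO and 6.16 to 20.9 FPKM in HI. Tcf4, Irf8 and Bst2, the other markers in that sum, overlapped between the groups. The part of B cells and plasmacytoid dendritic cells in the Spib values was not tested. Without HI M1 and LO M2 together Spib missed the threshold (adjusted p = 0.0668). Ets2, a factor acting downstream of MAP kinases, had 15.2, 15.9, 19.7 and 18.7 FPKM in LO F1, F2, M1 and M2, and 37.4, 30.8, 25.7 and 23.4 FPKM in HI F1, F2, M1 and M2. Its groups did not overlap either, but it was not called (log2 difference -0.71, limma adjusted p = 0.085). Elk3, a ternary complex factor, was at -0.56 (adjusted p = 0.195) and Etv5 at -1.40 (adjusted p = 0.206). Fev, Etv2, Elf3, Elf5 and Spdef were listed at 0 in all 8 libraries. Ets1, Fli1, Elf1, Elf4 and Gabpa together made up 80.7% to 84.6% of the FPKM of all 26 Ets genes in LO and 74.5% to 77.5% in HI. The other 21 summed to 127 to 170 FPKM in LO and 191 to 222 FPKM in HI.

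No cofactor of Runx or GABP was called by limma, against 8.29% of all tested genes called in either direction. Of 16 such genes 15 were in the table and 14 were tested, 2 of them lower and 0 higher at an unadjusted p below 0.05, against 20.9% of all tested genes in either direction, with a median log2 difference of -0.10. The lowest p belonged to Kmt2a, a histone methyltransferase that binds Runx1, with 6.31 ± 0.945 FPKM in LO and 11.6 ± 1.42 FPKM in HI (SD, n = 4 each), a log2 difference of -0.79 (limma adjusted p = 0.0879). Hdac1, a histone deacetylase of co-repressor complexes, had 112 ± 19.1 FPKM in LO and 152 ± 14.7 FPKM in HI (SD, n = 4 each, log2 difference -0.44, limma adjusted p = 0.15). In neither gene did the groups overlap. Kmt2a passed the threshold with eBayes without a trend (adjusted p = 0.0385). The Groucho co-repressor Tle4 was at 0.50 (adjusted p = 0.363) and the histone methyltransferase Suv39h1 at -0.64 (adjusted p = 0.377).

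Several genes known as targets of Runx factors in T cells rose in LO. Of 19 such genes 14 were tested, and limma called 6 higher and 0 lower, against 4.65% of all tested genes higher and 3.64% lower. At an unadjusted p below 0.05, 6 were higher and 1 lower, against 20.9% of all tested genes in either direction, and the median log2 difference was 0.62, against -0.026 over all tested genes. The list was chosen with earlier results of these data known, and it holds genes that Runx factors activate and genes that they silence. Its counts and median are thus no test of Runx activity. Itgae, the CD103 chain that Runx3 activates in CD8 T cells, had 138, 165, 110 and 78.9 FPKM in LO F1, F2, M1 and M2, and 12.4, 18.8, 15.4 and 12 FPKM in HI F1, F2, M1 and M2 (log2 difference 2.96, limma adjusted p = 0.000262). Gzmb, the granule protease granzyme B, had 133, 109, 125 and 112 FPKM in LO F1, F2, M1 and M2, and 4.9, 3.85, 4.62 and 9.59 FPKM in HI F1, F2, M1 and M2 (log2 difference 4.23, limma adjusted p = 0.00005). Tbx21, which encodes T-bet, the partner of Runx3 in type 1 helper cells, had 20.4, 17.2, 16.7 and 29.7 FPKM in LO F1, F2, M1 and M2, and 1.56, 3.69, 2.46 and 5.1 FPKM in HI F1, F2, M1 and M2. Its log2 difference was 2.43 (limma adjusted p = 0.00211). Ctla4, an inhibitory receptor gene bound by Foxp3 and Runx1, had 243, 289, 211 and 260 FPKM in LO F1, F2, M1 and M2, and 91.6, 108, 106 and 97.6 FPKM in HI F1, F2, M1 and M2 (log2 difference 1.30, limma adjusted p = 0.000642). In each of these 4 genes every LO library was above every HI library.

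Another called Runx target, named after its values were seen, was Tnfrsf18. Tnfrsf18, the GITR receptor, differed by 0.67 (limma adjusted p = 0.0275). Prf1, the perforin gene, is a Runx3 target in CD8 T cells and was at -0.75 (limma adjusted p = 0.248), with 3.15 to 6.96 FPKM in LO and 5.51 to 11.6 FPKM in HI. Cd4, which Runx3 silences in CD8 T cells, had 414, 585, 243 and 615 FPKM in LO F1, F2, M1 and M2, and 263, 320, 617 and 314 FPKM in HI F1, F2, M1 and M2, with overlapping groups. The 5 markers of CD8 T and NK cells summed to 26 to 34.2 FPKM in LO and 44.7 to 54.2 FPKM in HI. Most of the sum was Cd8b1, with 33.6, 27.6, 26.5 and 23.8 FPKM in LO F1, F2, M1 and M2, and 46.1, 41.6, 41.6 and 34.7 FPKM in HI F1, F2, M1 and M2 (limma adjusted p = 0.119). Cd8a was at most 0.503 FPKM in LO and 2.01 FPKM in HI, Ncr1 at most 0.717 FPKM in LO and 3.47 FPKM in HI, and Klrb1c at most 2.47 FPKM in LO and 4.65 FPKM in HI. Of the 3 tested Eomes was lower in LO, a call lost without LO F2 or HI M2, without HI M1 and LO M2 together, or with a filter of 5 FPKM. The plasma cell marker Jchain, the joining chain of secreted antibodies, was higher in LO, as Runx3 was, with 160, 88.1, 60.1 and 47.6 FPKM in LO F1, F2, M1 and M2, and 3, 11, 12.2 and 17.1 FPKM in HI F1, F2, M1 and M2. Within LO its libraries had the same order as those of Runx3, and within HI they did not. The other plasma cell markers did not share this pattern. Mzb1 averaged 4.95 FPKM in LO and 9.66 FPKM in HI (log2 difference -0.88, limma adjusted p = 0.315). Sdc1 averaged 3.83 FPKM in LO and 1.2 FPKM in HI (limma adjusted p = 0.422), with LO F1 its lowest LO library. Tnfrsf17 did not pass the low-value filter. The part of either cell type in the Runx3 values was not tested.

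Genes known as Ets targets in T cells were mostly not called. Of 13 such genes 10 were tested, 1 fell and none rose in limma, against 3.64% of all tested genes lower and 4.65% higher. At an unadjusted p below 0.05, 1 was lower and 1 higher, against 20.9% of all tested genes in either direction, and the median log2 difference was 0.01. The gene that fell was Il2ra, the high-affinity interleukin-2 receptor chain and a target of Elf1 and Ets1, with 26.6, 34.6, 22.2 and 27.5 FPKM in LO F1, F2, M1 and M2, and 70.8, 88.6, 69.6 and 73.2 FPKM in HI F1, F2, M1 and M2. Every LO library was below every HI library (log2 difference -1.42, limma adjusted p = 0.00149), while Elf1 and Ets1 themselves overlapped between the groups. Tnf was at 0.79 (limma adjusted p = 0.171) and Cd247, the zeta chain of the T cell receptor, at -0.28 (adjusted p = 0.256). Il7r, the interleukin-7 receptor chain that Gabpa activates, had 78.6, 78.1, 76.6 and 59.3 FPKM in LO F1, F2, M1 and M2, and 84.9, 45.5, 87.3 and 45.1 FPKM in HI F1, F2, M1 and M2, with overlapping groups. Of the 6 mitochondrial genes known as GABP targets all were tested and none was called by limma, against 8.29% of all tested genes. None had an unadjusted p below 0.05 either, against 20.9% of all tested genes, and the median log2 difference was -0.09. Among them Tfam, the activator of mitochondrial DNA transcription, was at 0.13 (limma adjusted p = 0.791), Tfb1m at 0.29 (0.648), Cox4i1 at -0.16 (0.543) and Atp5b at -0.13 (0.659).

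For each factor the tested gene with the most similar profile over the 8 libraries was found by the Euclidean distance of centred log2(FPKM + 1) values. Runx3 was nearest to Arid3a (distance 0.85), Fli1 to Cacnb1 (0.28) and Elf4 to Ttll12 (0.40). Runx1 was nearest to Arpc3 (0.36), Runx2 to Lrrc56 (0.67) and Cbfb to Miip (0.29). Ets1 was nearest to Myg1 (0.18), Elf1 to H3f3b (0.18) and Gabpa to Elmo3 (0.68). None of these nearest genes was itself another of the 9 factors.

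**Figure D4:**
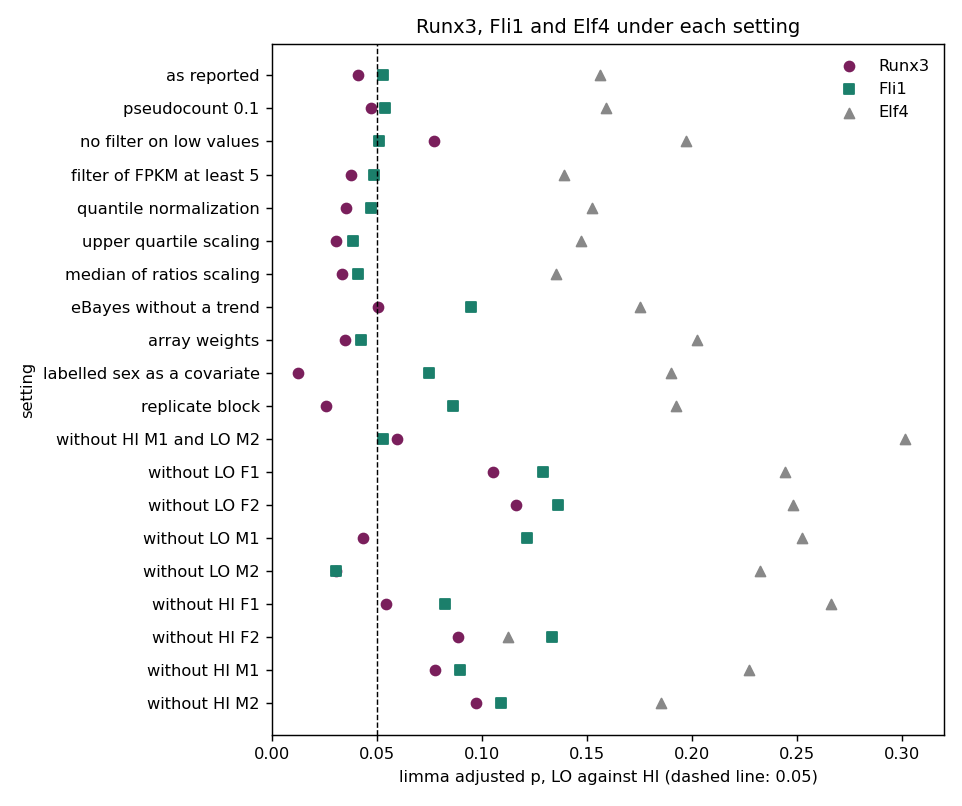
Limma adjusted p of the LO against HI difference for Runx3 (purple circles), Fli1 (green squares) and Elf4 (grey triangles) as reported and under 19 other settings, 1 per row, with a dashed line at 0.05. Runx3 lies between 0.012 and 0.116 and crosses the line in 9 settings, Fli1 lies between 0.0305 and 0.136, and Elf4 stays to the right of the line in all of them.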

How the data were processed

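RNA was measured in 8 bulk libraries of sorted spleen Treg cells, 4 LO and 4 HI, each placed in its group by its title. The deposited table holds FPKM, which the authors made before deposit and which are used as deposited. Per the name of the table they come from Cuffnorm, and per the submitters' processing notes the tools were HISAT2, FastQC and cutadapt and the builds mm9 and NCBIM37, with no versions. The annotation used is not given in the sources used here. Number of reads is not in the table. Relative depth was read from the steps between models below 2 FPKM.

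Symbols were matched by Ensembl ID to a GENCODE annotation of GRCm38 (31840 of 36811 IDs), which also gave chromosomes and exon overlap. Promoter sequences are from RefSeq, build GRCm38.p6. Models that reached 1 FPKM in 4 or more libraries were tested as log2(FPKM + 1), a scale that understates changes of low genes, with limma 3.58.1 in R 4.3.3 (eBayes with a variance trend, Benjamini-Hochberg adjustment at 0.05, two-sided), LO against HI without covariates, and with an interaction of reporter level and labelled sex. The 9 factors were also tested with exact permutation tests in scipy 1.17.1 over the 70 choices of 4 of 8 libraries. Shares of all tested genes called are given beside the counts for the factors, for their cofactors and for the target lists.

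The 9 factors, the gene lists and the marker lists were chosen with earlier results of these data known. Named genes are the 9 factors, Bach2, Foxp3, up to 4 genes with the lowest p in each list that is not of cell markers, and for each factor the 1 nearest gene by profile. Il7r, Cd4, Cd8a, Cd8b1, Ncr1, Klrb1c, Eomes, Ikzf2, Gata1, Ppbp, Jchain, Mzb1, Sdc1, Tnfrsf17, Siglech, Cox6a2, Tcf4, Irf8, Bst2, Itgam, Cebpa, Klf4, Gabpb1, Gabpb2, Tnfrsf18, Runx2os1, Wbp4 and Atp5j were named after their values were seen. Of the called Runx targets, 1 is not reported here. The fit was tested on simulated data. Alternatives were other pseudocounts, filters, scalings and eBayes settings, array weights, a sex covariate, blocks by label, and fits without 1 or 2 libraries.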

Additional observations from a re-analysis of the deposited data

Results flagged for a closer look

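In 3 of the 18 groups of 4 libraries formed by the 9 factors, the extreme library was farther from its nearest neighbour than Dixon's 95% limit for 4 values allows, and chance does this in about 1 of 20 groups of normal values. This holds for FPKM alone: on the log2(FPKM + 1) scale 0 of the 18 groups passed that limit, with ratios of gap to range of 0.8 for Runx1, 0.651 for Runx2 and 0.807 for Cbfb. Runx1 was 49.9 FPKM in LO F1, against 23.5 to 27.3 FPKM in the other LO libraries and 17 to 29.4 FPKM in HI. Runx2 was 24.4 FPKM in HI F1, which stood above all LO libraries (6.58 to 12.5 FPKM) and above the other HI libraries (1.85 to 5.12 FPKM). Cbfb was 46.2 FPKM in HI M1, against 31.1 to 33.6 FPKM in the other HI libraries. HI M1 was the shallowest library, at a relative depth of 0.637, and LO F1 and HI F1 were at 0.818 and 1. The part of depth in these values was not tested.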

How the results depend on the processing

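The number of the 9 factors called was 1, and moved to 2 with array weights, a stricter filter (5 FPKM), median of ratios or upper quartile scaling, or quantile normalization, and to 0 without a filter, with eBayes without a trend or without HI M1 and LO M2 together. It ran from 0 to 2 when single libraries were left out. Where it was 2, Fli1 joined Runx3, and where it was 0, Runx3 was lost, with adjusted p of 0.0771 without a filter, 0.0505 without a trend and 0.0592 without HI M1 and LO M2. Over 19 alternatives Runx3 was called in 10, with log2 differences of 1.33 to 1.84, Fli1 in 6 (0.56 to 0.73) and Elf4 in 0 (0.45 to 0.81, adjusted p 0.112 to 0.301). The cause was not tested. Genes called in all, 934 as reported, ran from 642 to 988. The scalings moved the median difference of all genes from -0.026 to -0.029 (quantile), 0.002 (upper quartile) and 0.003 (median of ratios).

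Several differences near 0 changed sign. Ets1 was at 0.05 with quantile normalization and at 0.02 with upper quartile and with median of ratios scaling. With quantile normalization Cox4i1 was at 0.32 and Atp5b at 0.33. With array weights Gabpa was at -0.12, Foxp3 at -0.01 and Elmo3 at -0.04. Leaving out single libraries gave ranges of -0.11 to 0.06 for Ets1, -0.36 to 0.28 for Gabpa, -0.13 to 0.15 for Foxp3, -0.00 to 0.27 for Arpc3, -0.04 to 0.20 for Cbfb, -0.01 to 0.17 for Miip, -0.11 to 0.01 for Myg1 and -0.30 to 0.50 for Elmo3.

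The labels F1, F2, M1 and M2 occur in both groups. Deviations of same-label libraries from their group means correlated at 0.0522, 0.0149, 0.0699 and 0.113 for F1, F2, M1 and M2, each of them positive. These values cannot tell whether LO and HI libraries of the same label came from 1 mouse. The labels were not taken as pairs in the main fit. LO F1, M1 and M2 each correlated best with the HI library of their own label, and LO F2 with HI M2 (0.0583). With a replicate block, 771 genes and 1 of the 9 factors were called, Runx3 with adjusted p = 0.0254, and Fli1 was at 0.0861. Depth differed by library and number of reads is unknown, so no counting error can be given for low values such as those of Runx2 and Spib.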

Other observations

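HI F1 was the highest or the lowest HI library in 7 of the 9 factors. It was lowest in Ets1, Elf4 and Gabpa and highest in Runx1, Runx2, Runx3 and Fli1. HI M1 was extreme in 2 of the 9, Cbfb and Elf1. In LO, F2 and M1 were each extreme in 6 factors, and F1 and M2 in 3 each, with LO F1 highest in Runx1, Runx3 and Fli1 and LO M2 lowest in Runx3, Fli1 and Elf1.

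The motifs searched were also present in windows of the Ets factors. An AP-1 type sequence lay at -39 of the first Elf4 window and at -23 of the second Elf1 window, and an Ets core at -92 of the Gabpa window. The Cbfb window held none of the 3 motifs. A match describes letters in a window and was not tied to any value.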
